A study of Mus musculus with 3 samples.

Results

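The fibroblast growth factor (FGF) receptors and the FGF ligands best known from the lung were examined in endothelial cells (ECs) of the adult mouse lung. The set holds 10 genes of the 24346 in the deposited table, picked by symbol from knowledge of the family and not by their level: the receptors *Fgfr1*, *Fgfr2*, *Fgfr3* and *Fgfr4*, the receptor-like gene *Fgfrl1*, and the ligands *Fgf1*, *Fgf2*, *Fgf7*, *Fgf10* and *Fgf18*. The study profiled the vasculature of several organs by RNA-seq, and the values analysed here are those of 1 condition, adult lung ECs, in 3 libraries that carry the authors' names S38, S44 and S52. The cells came fresh from wild type male C57BL/6J mice aged 6 to 8 weeks, with no treatment named other than an antibody to VE-cadherin given into the blood shortly before death. Lungs were digested with collagenase and dispase and cells were sorted as CD31+, VE-cadherin+, CD45- and podoplanin-, a gate meant to remove leukocytes and lymphatic ECs. Neither the labels nor the methods say whether the 3 libraries came from separate mice or from pools, so the spread between them may be technical. With 1 condition there is no comparison between conditions, and every error given is the SD over 3 libraries. All levels are FPKM, the fragments counted per kilobase of gene and scaled to the size of the library, a scale on which genes of different length can be set side by side.

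FGFs are secreted proteins that bind receptor tyrosine kinases on the cell surface together with heparan sulfate, a sugar chain carried by proteins such as syndecans. A bound receptor pairs with another, phosphorylates the docking protein FRS2 and starts the RAS and MAP kinase cascade, which in turn raises the Sprouty and dual-specificity phosphatase genes that dampen it. In the lung, FGF10 and FGF7 from the mesenchyme are known for acting on a splice form of FGFR2 in the epithelium during branching and repair, FGF18 for its part in alveolar development, and FGF1 and FGF2 as classic growth factors of cultured ECs. The genes encoding FGFR1, FGFR2 and FGFR3 are each spliced into forms with different ligand preference, which values per gene cannot separate.

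Among the receptors, *Fgfr3* was by far the highest in lung ECs. Among the ligands, *Fgf1* was the highest, and *Fgf2* was close to or at 0. Detection was set at 1 FPKM averaged over the libraries, a level that 9 of the 10 genes (90%) reached, against a background of 48.3% of all genes in the table. *Fgf2* was the gene not detected. The plot of all 10 genes by library shows the levels falling over several steps of a log axis.

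**Figure D1:**
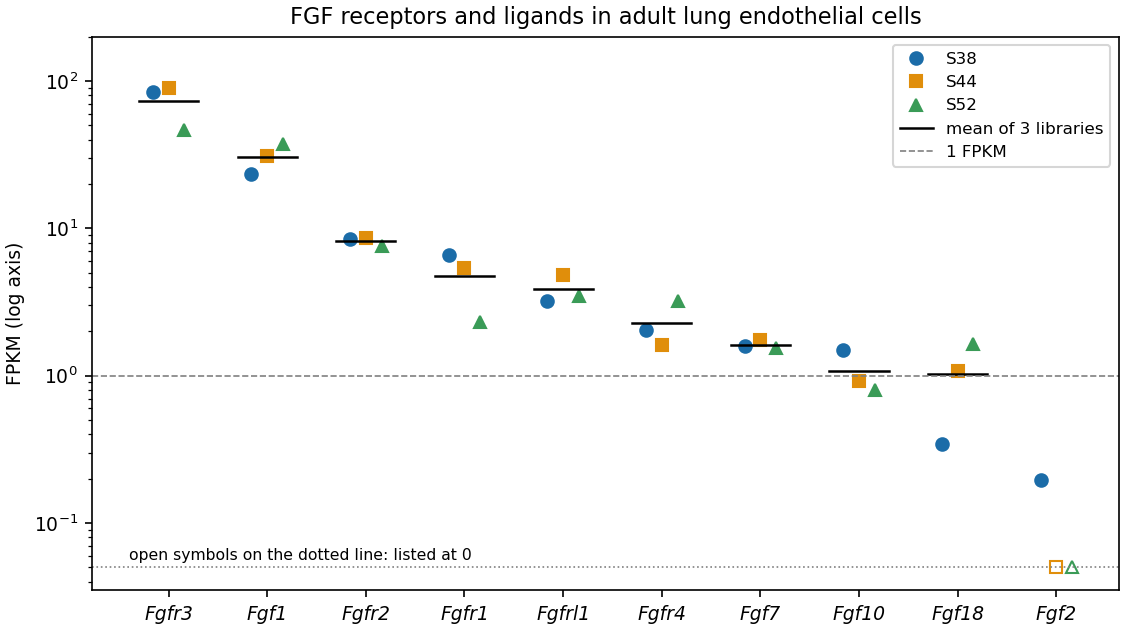
Level of each FGF receptor and ligand in FPKM (log axis) in the libraries S38, S44 and S52 (points), with the mean of the 3 libraries as a bar where all are above 0 and a dashed line at 1 FPKM. *Fgfr3* and *Fgf1* sit above the others in every library, *Fgfr1* falls to 2.31 FPKM in S52, and *Fgf2* is listed at 0 in S44 and S52 (open symbols).

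The libraries carried the EC program and RNA of other lung cells. All 10 EC markers were detected, with summed levels of 6369, 7058 and 6291 FPKM in S38, S44 and S52 and *Cldn5*, a tight junction gene, as the highest at 1416 FPKM. All 5 lung capillary markers were detected too, summing to 2506, 2797 and 2620 FPKM, led by *Plvap*, the fenestral diaphragm gene, at 941 FPKM. S52 stood apart from S38 and S44 in the genes of other cells, which are set beside the receptors further on. Depth, estimated from the steps between low values, was 36100000, 37900000 and 33700000 fragments, so each FPKM of *Fgfr3* stood for about 138 to 156 fragments in a library.

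*Fgfr3*, a receptor best known as a brake on bone growth, reached 84.0 FPKM in S38 and 90.4 FPKM in S44 but 46.3 FPKM in S52, a mean of 73.6 ± 23.8 (SD, n = 3). This level placed it above 95.1% of all genes in the table. S38 and S44 were close to each other, and S52 was the low library, with S38 at 1.81 times and S44 at 1.95 times its value. The gene lies on chr5:33721674-33737068, plus strand, in GRCm38, and its longest transcript has 18 exons. Of its exonic bases, 9.93% are shared with a noncoding gene on the opposite strand, *G630022F23Rik*, and libraries without strand information cannot tell their reads apart.

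*Fgfr2*, the receptor of FGF7 and FGF10 in epithelium, had 8.50, 8.64 and 7.59 FPKM across S38, S44 and S52, a mean of 8.24 ± 0.572 (SD, n = 3). It had a coefficient of variation of 6.93%, the lowest of the 5 receptor genes on the deposited scale. With libraries rescaled to the same sum it was at 7.37, 5.39 and 5.35, so its steadiness depends on the scaling. The gene is annotated on chr7:130162451-133123350, minus strand, a span of 2960900 bp, and shares 6.14% of its exonic bases with *Ctbp2* on the same strand. *Ctbp2*, a transcriptional corepressor, was at 23.2, 27.7 and 34.7 FPKM and was highest in S52, the library in which *Fgfr2* was lowest.

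*Fgfr1*, a broadly expressed receptor of the mesenchyme, was at 6.62, 5.36 and 2.31 FPKM, a mean of 4.76 ± 2.22 (SD, n = 3). S52 was again the lowest, and the highest library was 2.87 times the lowest. *Fgfr4*, the receptor that mediates FGF signals to the liver, was instead highest in S52, at 2.04, 1.61 and 3.21 FPKM, a mean of 2.29 ± 0.825 (SD, n = 3). Its S52 value was 1.57 times that of S38 and 1.99 times that of S44. *Fgfr1* is on chr8:25513654-25575718 and *Fgfr4* on chr13:55152640-55168759, both on the plus strand and each with 18 exons in the longest transcript. In estimated fragments, *Fgfr4* rested on 238, 195 and 342 and *Fgfr1* on 1180, 1000 and 379.

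*Fgfrl1* encodes a receptor with FGF-binding domains but no kinase. It was at 3.23, 4.86 and 3.49 FPKM, a mean of 3.86 ± 0.873 (SD, n = 3), with S52 between the other libraries. The gene lies on chr5:108692382-108706924, plus strand, on the same chromosome as *Fgfr3*, and has 7 exons in its longest transcript.

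Because a share within a library does not depend on how that library was scaled, each kinase receptor was also expressed as a percent of the summed FPKM of *Fgfr1*, *Fgfr2*, *Fgfr3* and *Fgfr4*. *Fgfr3* took 83.0% of S38, 85.3% of S44 and 77.96% of S52, a mean of 82.1% ± 3.75 (SD, n = 3). *Fgfr2* took 9.78% ± 2.59, *Fgfr1* 5.16% ± 1.33 and *Fgfr4* 2.98% ± 2.11. *Fgfr3* was thus the main receptor transcript in every library, although its lead over the others was not constant. Its ratio to *Fgfr2*, 9.87 in S38 and 10.5 in S44, was only 6.11 in S52. Its ratio to *Fgfr1* was instead highest in S52, at 12.7, 16.9 and 20.1. The summed level of the kinase receptors was 101, 106 and 59.4 FPKM, and without *Fgfr3* it was 17.2, 15.6 and 13.1 FPKM, so most of the drop in S52 was in *Fgfr3*. Without S52, the mean share of *Fgfr4* was 1.77%.

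**Figure D2:**
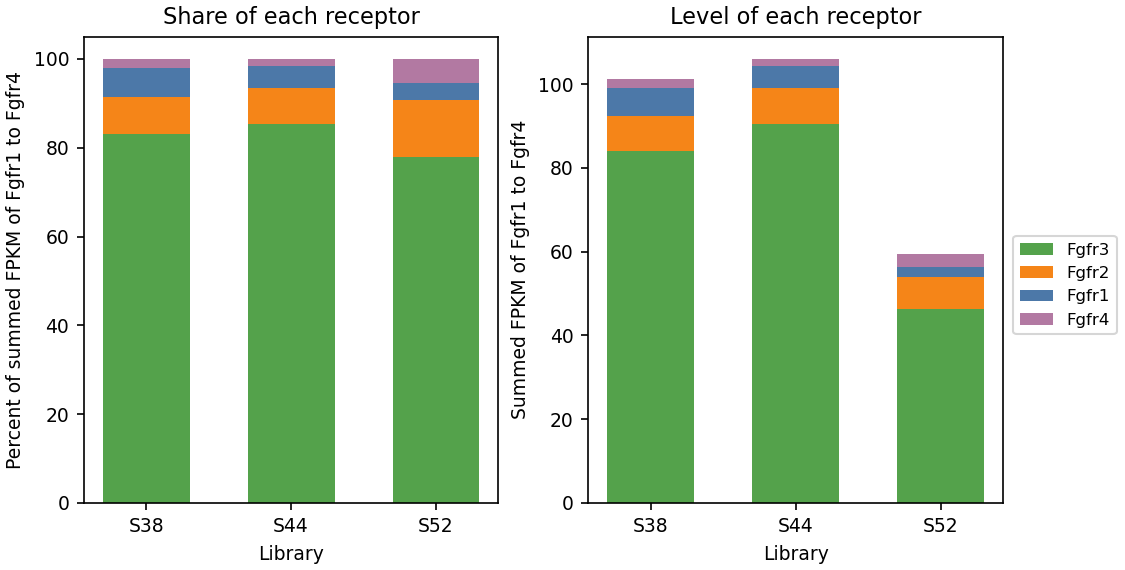
Left, percent of the summed FPKM of *Fgfr1* to *Fgfr4* in each receptor, and right, the sum itself in FPKM, for the libraries S38, S44 and S52 (stacked bars from 0, 1 library each, without error bars). *Fgfr3* takes 77.96% to 85.3% of the sum, and the sum is lower in S52 (59.4 FPKM) than in S38 (101 FPKM) and S44 (106 FPKM).

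RefSeq promoter windows were read to show the sequence next to start sites. There were 9 windows for 8 of the 10 genes, and none for *Fgfr1* and *Fgf1*. The chromosome of *Fgf1* was left out of the search. Each window runs from 250 to 51 bases before the start and so covers 200 bases of GRCm38.p6. Of these, 3 are printed 5′ to 3′ on the strand of the gene, for the highest receptor, for the receptor that follows it and for the receptor without a kinase, with capitals marking the GC box GGGCGG or its reverse complement.
Fgfr3 promoter, chr5:33721474-33721673, plus strand: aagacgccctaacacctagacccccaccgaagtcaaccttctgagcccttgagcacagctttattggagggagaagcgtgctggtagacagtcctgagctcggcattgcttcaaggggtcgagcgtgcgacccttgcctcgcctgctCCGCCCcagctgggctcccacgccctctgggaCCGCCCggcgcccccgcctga
Fgfr2 promoter, chr7:130266859-130267058, minus strand: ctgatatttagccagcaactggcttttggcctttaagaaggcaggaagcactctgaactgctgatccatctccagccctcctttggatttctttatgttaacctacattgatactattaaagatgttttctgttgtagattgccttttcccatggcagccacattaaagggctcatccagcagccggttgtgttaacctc
Fgfrl1 promoter, chr5:108693979-108694178, plus strand: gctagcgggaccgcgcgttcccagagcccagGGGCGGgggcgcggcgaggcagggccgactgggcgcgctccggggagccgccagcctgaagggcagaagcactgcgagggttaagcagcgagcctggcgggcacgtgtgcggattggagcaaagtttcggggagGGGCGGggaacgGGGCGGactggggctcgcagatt

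The *Fgfr2* and *Fgfrl1* windows lie inside the annotated spans of these genes given above, and not upstream of them. The 3 windows differ in base composition. The *Fgfr3* window holds 14 CpG dinucleotides and 2 GC boxes and is 65% G or C, and 82.2% of the 32851 promoter windows of the table hold as many CpG or fewer. In the *Fgfr2* window there is 1 CpG, a number that 24.6% of promoters do not exceed, no GC box, and 44% G or C. The *Fgfrl1* window holds 23 CpG and 3 GC boxes and is 73% G or C, at 94.4% of promoters. Over all promoters the median was 4 CpG, and on either strand 24.6% held a GC box and 9.14% a TATAAA box, which is in 0 of the 9 windows. The core GGAA of ETS factors, a family with many members in ECs, was searched on both strands and is in 89.2% of all promoters, so that finding it says little. It is absent from the printed *Fgfr3* window and occurs 2 times in that of *Fgfr2*. The *Fgfr3* window overlaps an exon of *G630022F23Rik*, and *Fgfr3* has a further RefSeq start downstream, whose window holds 20 CpG and 4 copies of GGAA. These are matches of letters, and no binding was measured here.

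Among the ligands, *Fgf1*, which can bind all FGF receptors, had 23.4, 31.1 and 37.3 FPKM across S38, S44 and S52, a mean of 30.6 ± 6.93 (SD, n = 3). It was above 88.5% of all genes and made up 86.6%, 89.3% and 90.4% of the summed FPKM of the 5 ligands. S52 was the highest library here, at 1.59 times S38 and 1.1997 times S44, so that *Fgfr3* exceeded *Fgf1* by 3.58 times in S38, 2.91 times in S44 and only 1.24 times in S52. *Fgf1* is on the minus strand of chr18:38838673-38929472, with 4 exons in its longest transcript.

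The mesenchymal ligands were near the threshold of detection. *Fgf7*, also called keratinocyte growth factor, was at 1.60, 1.74 and 1.53 FPKM, a mean of 1.62 ± 0.107 (SD, n = 3), and lies on chr2:126034658-126091185. *Fgf10*, needed for lung branching, was at 1.48, 0.915 and 0.805 FPKM, a mean of 1.07 ± 0.365 (SD, n = 3), and lies on chr13:118669791-118792115. Only S38 was above 1 FPKM for *Fgf10*, and without that library its mean was 0.860 FPKM. The fibroblast markers, all 6 detected and led by *Dcn* at 34.2 FPKM, summed to 95.7, 78.8 and 61.4 FPKM, in the same order of libraries as *Fgf10* and not that of *Fgf7*. The fall in this sum was mostly *Dcn*, at 47.4, 35.5 and 19.8 FPKM. Of the 6 genes, 3 were lowest in S52 and 2 highest, *Tcf21* at 13.1, 13.5 and 13.6 FPKM and *Pdgfra* at 7.13, 5.86 and 7.72 FPKM. Whether fibroblast RNA contributed to either ligand was not tested.

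*Fgf18*, on the minus strand of chr11:33117430-33147400, was at 0.343, 1.08 and 1.64 FPKM, a mean of 1.02 ± 0.650 (SD, n = 3). It varied most of the 9 detected receptors and ligands, with the highest library at 4.78 times the lowest, and it rested on few estimated fragments, 12.2, 39.5 and 51.2 by library. Its mean was 0.711 FPKM without S52 and 0.991 FPKM without S44, so its detection depended on either library.

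*Fgf2*, on chr3:37348346-37410108, was at 0.195 FPKM in S38 and was listed at 0 in S44 and S52. A listed 0 need not mean that no fragment was read, because an exact 0 in such a table can be an estimate that failed. *Fgf2* shares 9.81% of its exonic bases with *Nudt6* on the opposite strand, and *Nudt6* was at 4.71, 3.71 and 5.93 FPKM. Reads from the shared stretch cannot be assigned to either gene without strand.

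Ordered by mean, the levels ran *Fgfr3*, *Fgf1*, *Fgfr2*, *Fgfr1*, *Fgfrl1*, *Fgfr4*, *Fgf7*, *Fgf10*, *Fgf18* and *Fgf2*. Of the 9 pairs of neighbours, 6 had ranges that did not overlap. *Fgfr3* had 2.41 times the mean of *Fgf1*, *Fgf1* 3.71 times that of *Fgfr2*, and *Fgfr2* 1.73 times that of *Fgfr1*. *Fgfrl1* over *Fgfr4* (1.69 times), *Fgf7* over *Fgf10* (1.52 times) and *Fgf18* over *Fgf2* were the others, the last resting on the listed zeros of *Fgf2*. *Fgfr1* and *Fgfrl1*, *Fgfr4* and *Fgf7*, and *Fgf10* and *Fgf18* overlapped in range and are not set apart by these libraries. An exact two-sided sign-flip permutation test on the within-library differences of log2(FPKM + 1) gave p = 0.25 for each of the 6 pairs, the smallest value that 3 libraries allow, and p = 0.75, 0.5 and 1 for the other pairs, so no pair could pass a threshold of 0.05.

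The spread between libraries was then set against that of all detected genes. A highest library over 2 times the lowest was found for 2 of the 9 detected genes (22.2%), *Fgfr1* and *Fgf18*, against a background of 20.1%. The count was 0 without S52 and 1, *Fgfr1*, without S38 or without S44. *Fgf18* left the count without S44 or S52 because its mean fell below 1 FPKM and not because the libraries left were alike, since S44 exceeded S38 by 1.65 on the log2 scale. S52 was below both other libraries for 5 of 9 genes (55.6%), *Fgfr1*, *Fgfr2*, *Fgfr3*, *Fgf7* and *Fgf10*, against 46.3% of all detected genes. It was above both for 3 of 9 (33.3%), *Fgfr4*, *Fgf1* and *Fgf18*, against 33.9%. These shares were near their backgrounds. Over 1.5-fold below both lay *Fgfr1* and *Fgfr3*, 2 of 9 (22.2%) against 15.2%, and over 1.5-fold above both lay *Fgfr4* and *Fgf18*, 2 of 9 (22.2%) against 5.56%, counts too small to set the genes apart. For all detected genes the median difference in log2(FPKM + 1) was -0.08 for S52 minus S38, with a 10th percentile of -0.87. The log2 ratio of FPKM between the same libraries was -0.86 for *Fgfr3* and -1.52 for *Fgfr1*. For S52 minus S44 the median difference over all detected genes was -0.06, with a 10th percentile of -0.78. Against S44 the log2 ratios of S52 were -0.96 for *Fgfr3* and -1.22 for *Fgfr1*. These ratios carry no pseudocount. For a low gene such as *Fgfr1* they are larger in size than its differences in log2(FPKM + 1), the scale of the medians and percentiles. With each library rescaled to the same sum, which moves every gene by -0.30 against S38 and 0.18 against S44 on the log2 scale, S52 stayed the lowest for the same 5 genes and the highest for *Fgfr4*, *Fgf1* and *Fgf18*, while *Fgfrl1* became lowest in S52 as well.

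**Figure D3:**
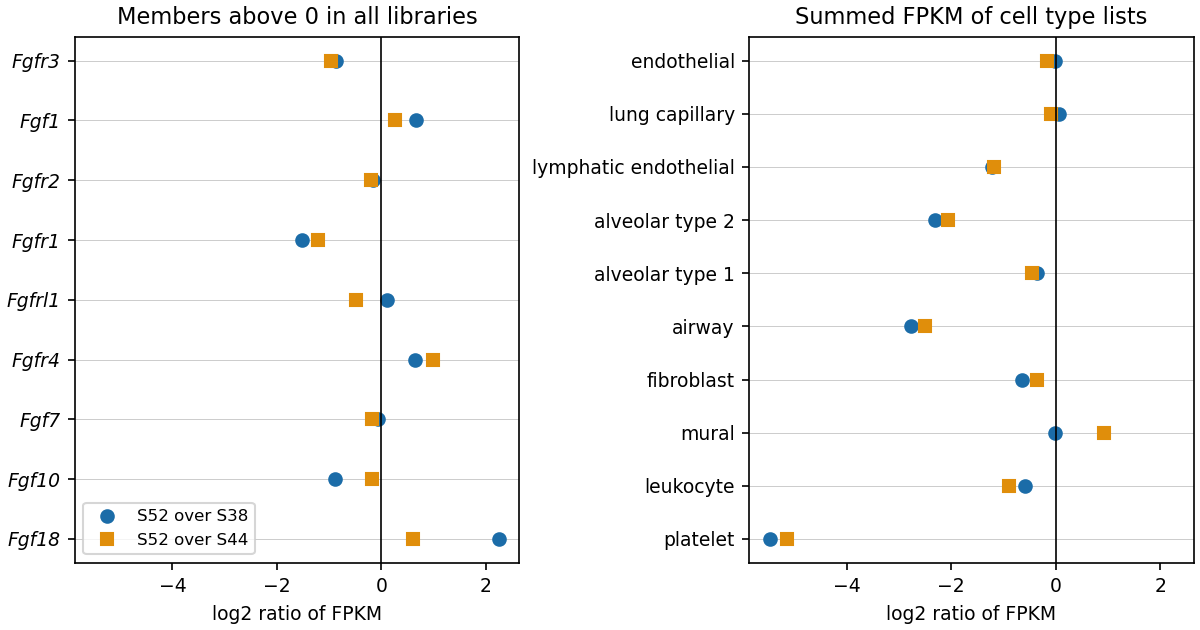
Left, log2 ratio of FPKM in S52 over S38 (circles) and over S44 (squares) for each of the 9 detected genes, and right, the same ratio for the summed FPKM of marker lists of lung cell types. The mesothelial list, which was listed at 0 in S52, is not shown. *Fgfr3* and *Fgfr1* lie left of 0 and *Fgfr4* and *Fgf18* right of it for both libraries, beside falls of over 5 for platelet genes and over 2 for alveolar type 2 and airway genes.

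Markers of several other cell types were also lower in S52. Alveolar type 2 genes, all 5 detected and led by the surfactant gene *Sftpc* at 2284 FPKM, summed to 3756, 3156 and 759.8 FPKM in S38, S44 and S52. Airway genes, all 5 detected and led by *Scgb1a1* of club cells at 1753 FPKM, summed to 2786, 2314 and 408 FPKM. Platelet genes, all 4 detected and led by *Ppbp*, a platelet chemokine, at 616 FPKM, summed to 1692, 1345 and 37.96 FPKM. *Fgfr3* and *Fgfr1* were low in the library in which these lists were low, with smaller differences. Some EC genes were lowest in S52 as well. The EC sum was also lowest in S52, with log2 ratios of -0.02 over S38 and -0.17 over S44. The capillary sum in S52 lay between those of S38 and S44. Both lists were split. Of the 10 EC markers, 3 were lowest and 3 highest in S52, and of the 5 capillary markers 2 were lowest and 3 highest. Among the highest were *Plvap*, at 815, 976 and 1034 FPKM, and *Gpihbp1*, at 661, 663 and 886 FPKM. The capillary genes *Ednrb*, an endothelin receptor, at 143, 155 and 75.3 FPKM, and *Car4*, a carbonic anhydrase, at 855, 959 and 582 FPKM, had the order of *Fgfr3*. So did *Cldn5* at 1486, 1732 and 1029 FPKM, and the VEGF receptor *Kdr* was at 380, 360 and 237 FPKM. Of the EC markers highest in S52, *Egfl7* was at 1027, 1127 and 1287 FPKM. The others were *Emcn*, at 156, 181 and 267 FPKM, and *Erg*, at 59.2, 43.1 and 84.8 FPKM. Lymphatic EC genes summed to 55.0, 53.8 and 23.7 FPKM, with 4 of 5 detected and the receptor gene *Flt4* the highest at 23.7, 23.8 and 19.8 FPKM. The fall in this sum came from *Mmrn1*, at 19.4, 17.6 and 0.236 FPKM, and the chemokine *Ccl21a*, at 9.41, 10.3 and 0 FPKM. *Prox1*, which defines lymphatic ECs, was below the threshold at 0.132, 0.173 and 0.598 FPKM, and it and *Pdpn*, the podoplanin gene, at 2.39, 1.84 and 3.09 FPKM, were highest in S52.

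Apart from the mesothelial list, the remaining lists moved less or in another way. Alveolar type 1 genes, all 4 detected and led by *Hopx* at 276 FPKM, summed to 348, 373 and 273 FPKM. That sum was mostly *Hopx*, and 2 of the 4 genes had their highest value in S52, *Ager* with 43.3, 33.4 and 66.0 FPKM by library and *Rtkn2* with 0.851, 0.149 and 3.07 FPKM. Mural genes, all 6 detected and led by the smooth muscle actin *Acta2* at 72.2 FPKM, were lowest in S44, at 119.96, 62.0 and 118 FPKM, as *Fgfr4* was. That sum was mostly *Acta2*, at 90.3, 46.7 and 79.7 FPKM, whereas 4 of the 6 genes were highest in S52, as *Fgfr4* was. Leukocyte genes summed to 30.6, 37.9 and 20.3 FPKM with 3 of 5 detected, the highest being the macrophage gene *Cd68* at 20.3 FPKM. Mesothelial genes, with 1 of 4 detected (*Msln*), summed to 2.34 and 6.14 FPKM and were listed at 0 in S52. No marker gene of any list was at 0 in all 3 libraries. Whether RNA of these cells took part in the levels of the FGF genes was not tested, and in bulk samples fewer cells of a type and less RNA per cell cannot be told apart.

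The other ligands of the family were nearly all undetected. Of 17 genes, 1 reached the threshold, against 48.3% of all genes in the table. It was *Fgf11*, at 2.66, 1.78 and 3.54 FPKM, a mean of 2.66 ± 0.879 (SD, n = 3). FGF11 belongs to the intracellular members of the family, which bind sodium channels and are not secreted. *Fgf3*, *Fgf4*, *Fgf5*, *Fgf6*, *Fgf8*, *Fgf15*, *Fgf20*, *Fgf22* and *Fgf23* were listed at 0 in all 3 libraries. Of the rest, *Fgf17* was highest in S44 at 0.319 FPKM, *Fgf21*, a hormone of the liver, was above 0 only in S44 at 0.294 FPKM, and *Fgf12* only in S38 at 0.246 FPKM.

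Of the co-receptors and binding partners, 10 of 16 were detected, against 48.3% of all genes in the table. The syndecans *Sdc3* and *Sdc4*, which carry heparan sulfate, were the highest at 41.8 ± 3.88 and 41.7 ± 3.42 FPKM (SD, n = 3). *Sulf1*, a sulfatase that trims heparan sulfate, was at 15.0 ± 0.966 FPKM and *Hs6st1*, which adds sulfate to it, at 7.59 ± 1.90 FPKM (SD, n = 3). The klotho genes *Kl* and *Klb*, co-receptors for the hormone-like FGFs, were below the threshold at means of 0.473 and 0.692 FPKM. Over 2-fold differences between libraries were seen in 4 of the 10, against 20.1% of all detected genes, and 3 of these were low in S52, as *Fgfr1* was: the epithelial syndecan *Sdc1* at 7.59, 4.71 and 1.29 FPKM, *Fgfbp3*, a carrier of FGFs, at 3.59, 4.49 and 0.625 FPKM, and *Sulf2* at 3.14, 2.63 and 0.728 FPKM. *Fgfbp1*, another carrier, was the fourth and was highest in S52. *Sdc1*, *Fgfbp3*, *Sulf2*, *Fgfbp1*, *Kl* and *Klb* were named after their values were seen.

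The adaptors and kinases that carry the receptor signal were detected without exception, 21 of 21, against 48.3% of all genes in the table. *Mapk3*, the kinase ERK1 at the end of the cascade, was the highest at 371 ± 44.1 FPKM (SD, n = 3). *Plcg1*, a phospholipase that binds activated receptors, was at 65.2 ± 5.81 FPKM and the adaptor *Crk* at 62.3 ± 6.86 FPKM (SD, n = 3). The docking proteins specific to FGF and neurotrophin receptors were lower, *Frs2* at 4.92 ± 1.11 FPKM and *Frs3* at 2.87 ± 0.256 FPKM (SD, n = 3), and were named after their values were seen. None of the 21 genes differed over 2-fold between libraries, against 20.1% of all detected genes. S52 was below both others for 7 and above both for 11, against 46.3% and 33.9%, and these kinases serve many receptors besides those of FGFs.

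Feedback genes known to respond to FGF were detected in 11 of 14 cases, against 48.3% of all genes in the table. *Dusp6*, a phosphatase of ERK, was the highest at 43.996, 62.0 and 51.4 FPKM, a mean of 52.5 ± 9.05 (SD, n = 3). The Sprouty genes followed, *Spry4* at 18.1 ± 4.26, *Spry1* at 16.9 ± 3.17 and *Spry2* at 13.6 ± 2.08 FPKM (SD, n = 3), whereas *Spry3* was listed at 0 in all libraries. *Dusp6* was lowest in S38, and *Spry4* and *Spry2* were highest in S52. *Spry1*, at 17.2, 20.0 and 13.6 FPKM, had the same order of libraries as *Fgfr3*. *Etv5*, an ETS factor that is also abundant in alveolar type 2 cells, did fall to its lowest value in S52, at 8.26, 6.59 and 2.32 FPKM, and was named after its values were seen. Over 2-fold differences between libraries were seen in 3 of the 11 detected feedback genes, against 20.1% of all detected genes. *Etv5* and *Spred3* of these were lowest in S52, and *Dusp5* was highest there. *Spred3* and *Dusp5* were also named after their values were seen. S52 was below both other libraries for 6 of the 11 detected feedback genes and above both for 3, against 46.3% and 33.9% of all detected genes. VEGF and other receptors of ECs also drive several of these genes, so their level cannot be assigned to FGF here.

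**Figure D4:**
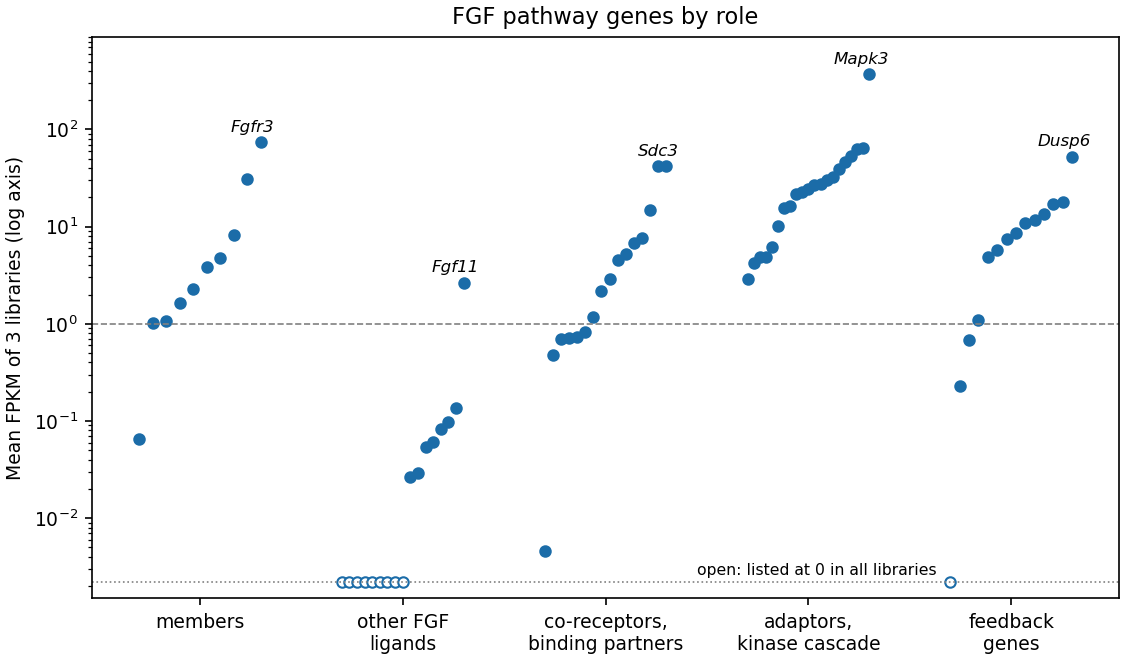
Mean FPKM of the 3 libraries (log axis) for each gene of the FGF receptor and ligand set and of the 4 lists of other FGF ligands, co-receptors and binding partners, adaptors and kinases, and feedback genes, with listed zeros counted as 0 in the means and a dashed line at 1 FPKM. All 21 adaptors and kinases lie above the line, while 1 of 17 other ligands does, and open symbols mark genes listed at 0 in all libraries. Of all genes in the table, 48.3% reach 1 FPKM.

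Read as medians of the means, the lists stood at 0 FPKM for the other ligands, 2.53 FPKM for co-receptors and binding partners, 24.5 FPKM for adaptors and kinases and 8.01 FPKM for feedback genes, beside 0.784 FPKM for all genes of the table. *Fgfr3* was above the median of every list, and *Fgfr1*, *Fgfr4* and *Fgfrl1* were below those of the kinases and the feedback genes.

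For each receptor the genes with the most similar values were found by the Euclidean distance of log2(FPKM + 1) over the 3 libraries, a measure in which level counts as much as pattern. Nearest to *Fgfr3* were *March2*, a ubiquitin ligase, at 87.3, 90.6 and 46.4 FPKM (distance 0.06), and *Dhrs3*, a retinaldehyde reductase, at 85.2, 89.95 and 43.7 FPKM (distance 0.08). *Fgfr1* was nearest to the magnesium transporter *Nipa1* (distance 0.12) and the semaphorin receptor *Plxna4* (distance 0.15), both lowest in S52 at 2.11 and 2.43 FPKM. For *Fgfr2* they were *Lsg1*, a GTPase of ribosome assembly, and *Rilpl2*, a gene of ciliary transport (distances 0.04 and 0.05). *Fgfr4* was nearest to *Bcorl1*, a corepressor, and *Speer4f1* (distances 0.06 and 0.09), and *Fgfrl1* to the myosin *Myo7a* and the peroxisome gene *Pex10* (distances 0.09 and 0.11). With 3 values per gene, many genes lie near each other by level alone, and these names are given as a description.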

How the data were processed

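Adult lung ECs were profiled as poly-A selected, non-stranded libraries read as pairs of 51 bp. The authors deposited 1 FPKM value per gene symbol and library, aligned to mm10. The submitters' processing notes name bcl2fastq 2.17, FastQC 0.11.5, Trimmomatic 0.36, TopHat2 2.1.0 and Cufflinks 2.2.1, while the study's methods describe other software for its counts, so the step behind the FPKM values and its gene annotation are not given in the sources used here. FPKM depends on the total of the library, and 1287 short noncoding genes, recognised by symbol, took 59.6% to 70.2% of each column's sum, so levels were also compared as ratios within a library. An overlapping gene can take or give fragments, and an exact 0 can be an estimate that failed.

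Values were used as deposited, with 0 per-sample columns left out, in Python 3.11.15 with pandas 2.3.3, numpy 2.4.6, scipy 1.17.1 and matplotlib 3.10.9. No count model was used, since FPKM is not a count. A pseudocount of 1 was added only for the sign-flip test, the distances between genes and the median differences in log2(FPKM + 1). Depth was estimated by finding the step that makes low FPKM values of 7077 genes, with transcripts of 800 to 4000 bp, whole numbers of fragments. This left 77.7% to 86.0% of low values within 0.15 of a whole number. On simulated data for 7077 genes the depth was recovered with an error of at most 2.73% for 3 depths. Gene positions, exons and overlaps are from GENCODE M21 on GRCm38, and promoters from RefSeq on GRCm38.p6.

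Named genes were all 10 members, the 4 highest genes of each pathway list, every other ligand with a mean of at least 1 FPKM, the highest gene of each cell type list, and the 2 genes nearest to each receptor, leaving out predicted and short noncoding genes. A gene that this rule covers is not reported here. Further names are marked as chosen after their values were seen. *Ctbp2*, *Nudt6*, *G630022F23Rik*, *Prox1*, *Ednrb*, *Car4*, *Kdr*, *Egfl7*, *Emcn*, *Erg*, *Gpihbp1*, *Mmrn1*, *Ccl21a*, *Pdpn*, *Ager*, *Rtkn2*, *Tcf21*, *Pdgfra*, *Spry3* and the ligands listed at 0 were also added after their values were seen. The members, the lists and the way of estimating depth were chosen with earlier results of these data known. The alternatives were other thresholds, pseudocounts, scalings and folds, and leaving out each library in turn.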

Additional observations from a re-analysis of the deposited data

How the results depend on the processing

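At a threshold of 10 FPKM, 2 of the FGF receptors and ligands, 0 other ligands, 3 co-receptors and binding partners and 6 feedback genes were detected, and at 0.1 FPKM 2 other ligands were. The adaptors and kinases numbered 16 at 10 FPKM and 21 under every other setting tried. The count of detected receptors and ligands was 7 to 9 under the settings apart from 10 FPKM. It was 8 without any 1 library, with *Fgf10* lost without S38 and *Fgf18* lost without S44 or S52. The number of genes varying over 2-fold fell from 2 to 1 with a pseudocount of 1, rose to 7 at a fold of 1.5, and ranged from 0 to 1 when each library was left out. It was 3 with either rescaling tried. For detection and for this spread, shares of all genes were taken only at the main settings. The counts at other settings therefore have no background here. Of the 5 genes lowest in S52, 2 were so by over 1.5-fold, a limit chosen after seeing the data, as was the rescaling without short noncoding genes. Pairs of neighbours without overlap numbered 4 to 7 under the alternatives, against 6. The share of *Fgfr3* lay between 78.5% and 84.1%, within 1 SD of the value reported. With each library rescaled to a sum of 1000000, the mean moved by more than 1 SD for *Fgfr2* (6.03 FPKM), *Fgfrl1* (2.76 FPKM), *Fgf1* (22.0 FPKM) and *Fgf7* (1.18 FPKM), and the means of *Fgf10* and *Fgf18* fell below 1 FPKM. Without S38 the order of means turned for *Fgfrl1* (4.17 FPKM) over *Fgfr1* (3.83 FPKM) and for *Fgf18* (1.36 FPKM) over *Fgf10* (0.860 FPKM), both among the pairs with overlapping ranges. No paired analysis was possible because there is 1 group, so no groups could be paired, and the sign-flip test pairs genes within a library. With 3 libraries no test of the order could pass its threshold, and low genes such as *Fgf18* rest on few fragments.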
